A study of Mus musculus with 40 samples.

Results

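The subcutaneous fat depot, labelled sWAT for white adipose tissue below the skin, of mice given tirzepatide on continued high-fat diet (HFD) was compared with that of mice moved from HFD back to normal diet (ND). The comparison takes the 8 libraries labelled HFD-fed with tirzepatide and the 8 labelled as a dietary intervention, 16 of the 40 libraries of the series, and covers the 15807 genes that passed a filter on low counts. All members were chosen by these labels. The other 24 libraries are 8 of mice kept on ND, 8 of mice kept on HFD and 8 of HFD-fed mice given semaglutide. They entered the fit and are shown as background levels. The series was made to ask which genes stay altered, and which recover, when incretin analogs are given. Both groups compared here had been fed HFD, and at sampling they differed in the diet as well as in the drug, so the effect of the drug and that of the diet cannot be told apart. The labels give no strain, age, sex, dose or duration, and they do not say whether the diet-switch mice had received a drug before the switch, although the title of the series speaks of an intervention that follows such treatment, or whether each sample is an animal of its own. The p-values below therefore measure a spread between samples, which may in part be technical. That spread was estimated over all 40 libraries, so it also rests on the 24 that are not compared here.

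Tirzepatide is a lipidated peptide that activates the receptors of both glucose-dependent insulinotropic polypeptide (GIP) and glucagon-like peptide 1, and it lowers food intake. White adipocytes can make fatty acids from carbohydrate: cytosolic acetyl-CoA is formed from citrate or acetate, carboxylated to malonyl-CoA, built into palmitate, and then elongated and desaturated. This route, de novo lipogenesis, consumes NADPH and is known to be induced by carbohydrate and insulin and damped by dietary fat.

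The QuantSeq libraries of this comparison held 2115471 to 7445548 counts in the tirzepatide group and 2802605 to 4440695 after the switch. Levels are given as CPM, the counts of a gene scaled to a common library total with TMM factors. Defining markers of the labelled tissue were present: the 18 adipocyte genes summed to between 28714 and 44372 CPM in tirzepatide libraries and between 29918 and 37705 in switch libraries, and none was at 0. Other tissues were also present. The 15 skeletal muscle markers summed to between 145 and 4817 CPM with tirzepatide (median 1217) and between 125 and 5430 after the switch (median 334), and their mean was above 5 log2 CPM in tirzepatide libraries 1, 2, 4, 5 and 7 and switch libraries 1, 3 and 6. Switch libraries 3, 4 and 7 stood apart at one end of the first axis of variation within groups, at 37.3, 27.5 and 23.0, with switch libraries 1 and 2 at the other end, at -41.1 and -35.6. 18S ribosomal RNA took 4.82 to 12.7% of counts with tirzepatide and 3.56 to 6.13% after the switch. Across 9750 genes the fold changes of this comparison correlated with the GC content of the transcript's end (r = 0.356, over genes, which are not independent). After a correction for it 72 genes passed, all 7 enzymes below among them. Of the 61 genes called below that have a GC value, 51 passed. Ccn1, Hsd11b1, Hsdl1, Kiss1r, Lyl1, Marveld1, Pygl, Smg5, Supt6 and Txn1 did not. Since the library numbers follow the groups, an effect of their order cannot be told apart from the groups.

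Few genes separated the groups, and among the gene lists the enzymes that make fatty acids had the most calls. Tirzepatide tissue had lower levels of Acly, Acss2, Acaca, Fasn, Elovl6, Scd1 and Scd2, by 2.27-fold for Scd1 to 5.94-fold for Elovl6, lower levels of the fructose transporter Slc2a5, and modestly lower levels of 3 collagens and of lactate dehydrogenase A. The clearest gain was in Mdk, the heparin-binding growth factor midkine, at 2.56-fold. In bulk tissue, fewer cells of a type and less RNA per cell cannot be told apart.

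Altogether 63 genes passed a Benjamini-Hochberg adjusted p of 0.05 in the quasi-likelihood test of edgeR, 0.399% of the genes tested. Lower in tirzepatide were 45 (0.285%) and higher were 18 (0.114%); 26 of the former and 4 of the latter differed by at least 2-fold. Without adjustment 2059 genes had a p under 0.05. Over all genes 8414 of 15807 values were negative and the median log2 fold change was -0.03. The median half-width of the 95% interval was 0.49, not adjusted for the number of genes tested. A typical gene therefore needed a larger difference than 0.49 to be called. Against ND, in 2 comparisons that share the 8 ND libraries, 1591 genes were called in tirzepatide (10.1%) and 2338 after the switch (14.8%). Fitted on the 16 libraries alone, without the spread of the other 24, only Mdk passed (edgeR adjusted p = 0.00374). All 58 called genes that were tested there kept their direction, which adds no support, since the same libraries were compared. The number of calls ran from 37 without tirzepatide library 3 to 359 without tirzepatide library 8, with 135 without tirzepatide library 5, 139 without switch library 2 and 351 without switch libraries 3, 4 and 7.

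**Figure D1:**
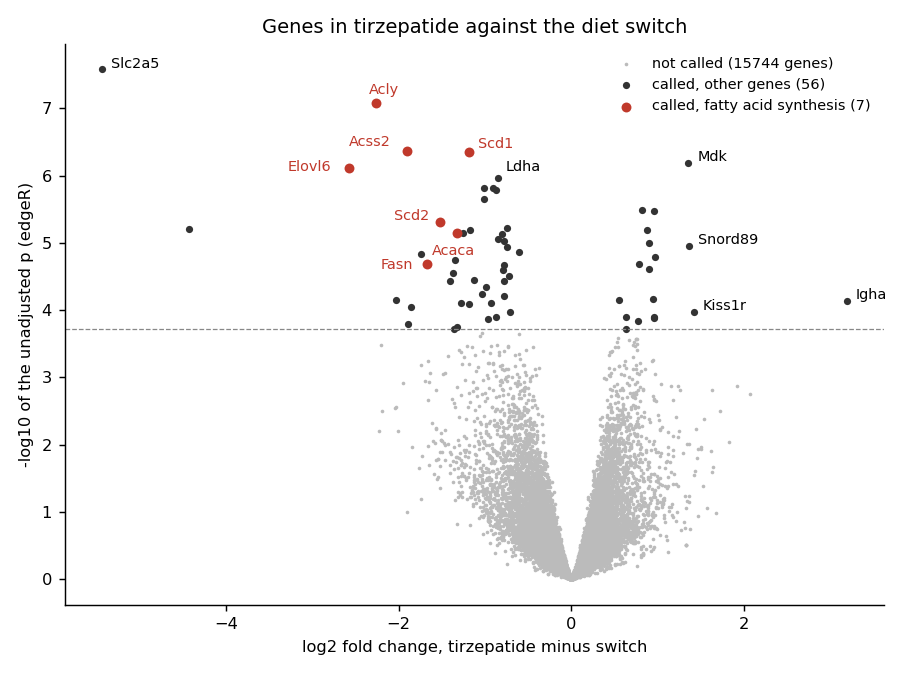
Each point is 1 of 15807 genes, with the log2 fold change of tirzepatide minus switch on the x axis and -log10 of the unadjusted edgeR p on the y axis; the dashed line marks the last of the 63 calls. The 7 fatty acid synthesis enzymes (red) lie to the left between -2.57 and -1.18, and Slc2a5 at -5.44, while Mdk is the highest point on the right at 1.36.

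Citrate and acetate feed the pathway through 2 enzymes, and both were lower with tirzepatide. Acly, ATP citrate lyase, which splits cytosolic citrate to acetyl-CoA, lay between 65.1 and 288 CPM in the tirzepatide libraries (median 101) and between 109 and 1380 after the switch (median 471). Its log2 fold change was -2.26 ± 0.34 (SE, 8 libraries a group, edgeR adjusted p = 0.000656), and a two-sided exact permutation of the 16 libraries gave p = 0.00202. Fitted on these 16 libraries alone, Acly had an SE of 0.48. Tirzepatide library 1 was the highest of its group for Acly, and 6 of 8 tirzepatide libraries were below every switch library for this gene. Acss2, the cytosolic acetyl-CoA synthetase that uses acetate, lay between 12.7 and 44.0 CPM (median 21.3) against 16.05 to 190 (median 84.5). It fell by 1.91 ± 0.31 on the log2 scale (SE; edgeR adjusted p = 0.00174; exact permutation p = 0.00497), and 6 of 8 switch libraries were above every tirzepatide library. Slc25a1, the carrier that exports citrate from mitochondria, stood at -0.46 ± 0.29 and did not pass (adjusted p = 0.518), with 157 to 769 CPM against 135 to 808.

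The steps from acetyl-CoA to palmitate were lower too. Acaca, acetyl-CoA carboxylase 1, which makes malonyl-CoA for synthesis, lay between 80.3 and 240 CPM (median 116) with tirzepatide and between 108 and 707 (median 276) after the switch, a log2 fold change of -1.32 ± 0.26 (SE; edgeR adjusted p = 0.00550; exact permutation p = 0.00746). Fasn, fatty acid synthase, lay between 345 and 2412 CPM (median 838) against 635 to 6492 (median 2708), a log2 fold change of -1.67 ± 0.35 (SE; edgeR adjusted p = 0.0101; exact permutation p = 0.00777). For both genes the groups overlapped, with tirzepatide libraries 1 and 8 the highest of their group and switch libraries 3 and 4 the lowest of theirs. Acacb, the carboxylase of the mitochondrial surface whose malonyl-CoA restrains fatty acid oxidation, stood at -0.31 ± 0.22 and did not pass (adjusted p = 0.569). Mcat (-0.02 ± 0.26) and Acsf3 (0.01 ± 0.20), of mitochondrial fatty acid synthesis, did not pass either.

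Enzymes of elongation and desaturation were lower as well. Elovl6, which elongates palmitate to stearate, lay between 5.34 and 23.4 CPM (median 9.29) against 13.4 to 178 (median 43.3), the largest fold among the enzymes at -2.57 ± 0.43 (SE; edgeR adjusted p = 0.00201; exact permutation p = 0.00186). Scd1, the main stearoyl-CoA desaturase of adipose tissue, lay between 3583 and 7422 CPM (median 5060) against 6899 to 18931 (median 11199), a log2 fold change of -1.18 ± 0.20 (SE; edgeR adjusted p = 0.00174; exact permutation p = 0.000311). Its groups were the best separated of the 7 enzymes, since only the highest tirzepatide library and the lowest switch library crossed. Scd2, another desaturase, lay between 46.9 and 161 CPM (median 65.4) against 56.9 to 358 (median 208), a log2 fold change of -1.52 ± 0.29 (SE; edgeR adjusted p = 0.00550; exact permutation p = 0.00342). Scd3 stood at -0.39 ± 0.24 and did not pass. Of the 12 genes of the list of de novo fatty acid synthesis, 7 were thus lower, none was higher and 5 did not pass, with a median of -1.25, beside 0.285% of all genes lower and a median of -0.03. The list was chosen with results of these data known.

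**Figure D2:**
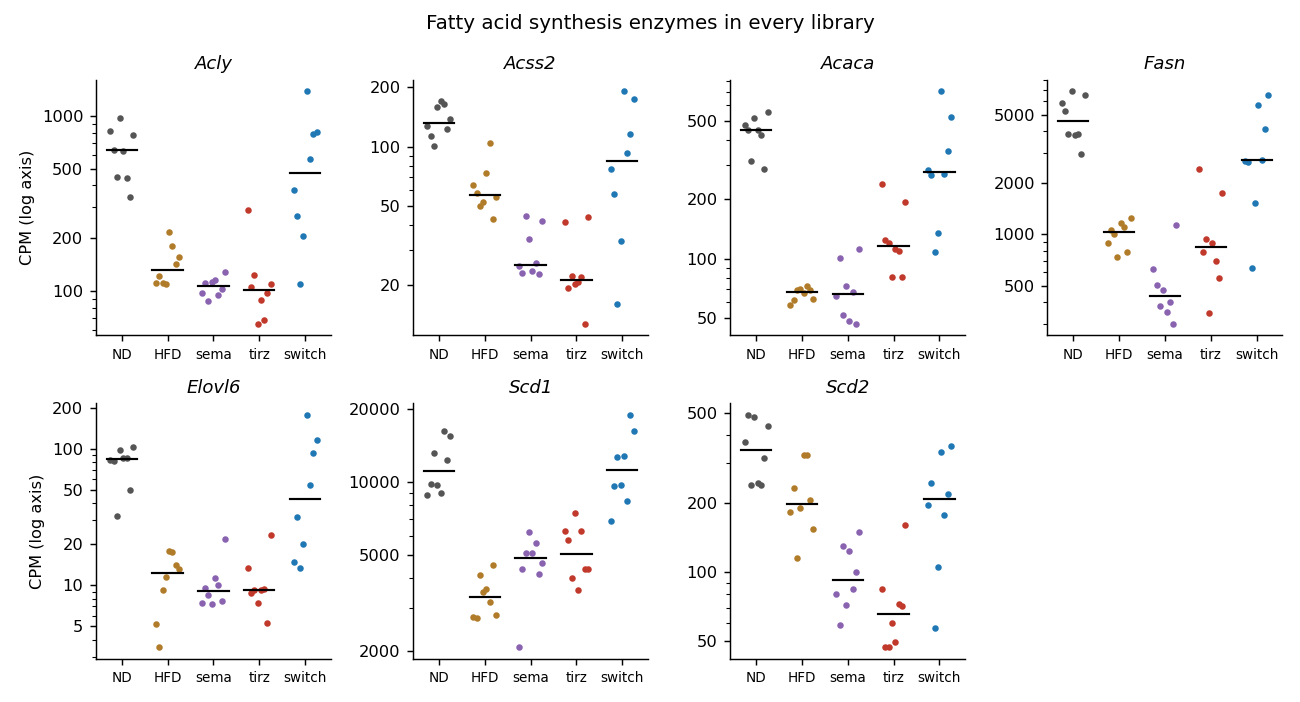
CPM on log axes of the 7 enzymes in each of the 40 libraries (points, ordered by library number within each of 5 groups of 8; bars are medians). For Acly the tirzepatide points spread from 65.1 to 288 CPM around a median of 101, beside medians of 131 in HFD and 106 in semaglutide, and the switch points from 109 to 1380; for Acaca all tirzepatide points lie above HFD, and for Scd2 their median lies below that of HFD.

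The calls on these enzymes did not rest on 1 library: in each of the 16 fits that left out 1 library all 7 passed, with a largest adjusted p of 0.0355. With the 16 libraries alone none of the 7 passed (edgeR adjusted p 0.113 to 0.250) at nearly unchanged folds. Another fit left out all 11 muscle-high libraries, 5 of tirzepatide, 3 of the switch, 2 of ND and 1 of HFD. With these fewer samples only Acly passed. In that fit the log2 fold changes were -2.77 for Acly, -1.93 for Acss2, -1.48 for Acaca, -1.85 for Fasn, -2.60 for Elovl6, -1.46 for Scd1 and -1.42 for Scd2, so 6 of 7 were at least as large as with all libraries. The levels in the other groups differed between enzymes. HFD libraries held 110 to 218 CPM of Acly, 736 to 1247 of Fasn and 2729 to 4521 of Scd1, and ND libraries 345 to 975, 2936 to 6859 and 8869 to 16273. Of Acss2, HFD libraries held 43.2 to 105 CPM, against 12.7 to 44.0 with tirzepatide. Semaglutide libraries held 87.0 to 127 CPM of Acly, 301 to 1141 of Fasn, 2074 to 6239 of Scd1 and 22.6 to 44.4 of Acss2. Low levels of these enzymes were thus not particular to tirzepatide. Set against ND, with the ND libraries shared, the log2 fold changes in tirzepatide and after the switch were -2.44 and -0.18 for Acly, -2.43 and -0.53 for Acss2, -1.71 and -0.39 for Acaca, -2.22 and -0.55 for Fasn, -2.82 and -0.25 for Elovl6, -1.17 and 0.01 for Scd1, and -2.25 and -0.73 for Scd2. In tirzepatide all 7 passed against ND and after the switch none did.

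Promoters of the enzymes are shown because their messages moved together in this comparison and lipogenic promoters are known to hold CCAAT boxes, bound by NF-Y. RefSeq promoter windows of GRCm38.p6, 250 bases before to 50 after the annotated start, were matched for 5 of the 7 enzymes. The window of Acaca, chr11:84195188-84195487 on the plus strand, lies inside the gene, which starts at 84129672 in the GENCODE annotation. It therefore covers an internal start and not the promoter at the start of the gene. The pentamer CCAAT, searched on both strands and with overlapping matches counted (so that it is written ATTGG where it lies on the other strand), was found in Acly, Acss2 and Fasn, in 3 of 5 windows, beside 37.4% of 32851 promoters of the same length. In Fasn a pair of opposed matches overlaps in CCAATTGG. CACGTG, an E-box, was in none of the 5 (7.15% of all promoters), TCACNCCAC in none (1.24%), and GGGCGG, a GC box, in 2 (35.7%). The windows of Acly, Acss2, Fasn and Elovl6 follow, 5′ to 3′ on the strand of the gene, with CCAAT and ATTGG in capitals.
Acly, chr11:100527951-100528250, minus strand: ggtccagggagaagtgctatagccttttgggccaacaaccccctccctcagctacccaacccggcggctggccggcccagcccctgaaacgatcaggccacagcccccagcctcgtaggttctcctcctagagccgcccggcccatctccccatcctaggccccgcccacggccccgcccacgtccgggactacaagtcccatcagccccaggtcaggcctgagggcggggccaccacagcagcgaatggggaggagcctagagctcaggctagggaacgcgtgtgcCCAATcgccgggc
Acss2, chr2:155517793-155518092, plus strand: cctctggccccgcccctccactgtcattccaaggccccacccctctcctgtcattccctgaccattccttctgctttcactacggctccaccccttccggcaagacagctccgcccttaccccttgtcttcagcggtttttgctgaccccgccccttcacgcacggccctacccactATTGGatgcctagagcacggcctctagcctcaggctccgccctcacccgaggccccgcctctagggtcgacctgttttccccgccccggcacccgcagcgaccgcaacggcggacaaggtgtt
Fasn, chr11:120824498-120824797, minus strand: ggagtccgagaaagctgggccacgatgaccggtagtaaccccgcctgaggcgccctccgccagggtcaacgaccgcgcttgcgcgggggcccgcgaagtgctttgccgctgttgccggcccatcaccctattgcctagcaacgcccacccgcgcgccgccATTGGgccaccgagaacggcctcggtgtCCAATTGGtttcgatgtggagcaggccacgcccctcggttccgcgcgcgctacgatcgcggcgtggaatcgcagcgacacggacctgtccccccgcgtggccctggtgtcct
Elovl6, chr3:129532136-129532435, plus strand: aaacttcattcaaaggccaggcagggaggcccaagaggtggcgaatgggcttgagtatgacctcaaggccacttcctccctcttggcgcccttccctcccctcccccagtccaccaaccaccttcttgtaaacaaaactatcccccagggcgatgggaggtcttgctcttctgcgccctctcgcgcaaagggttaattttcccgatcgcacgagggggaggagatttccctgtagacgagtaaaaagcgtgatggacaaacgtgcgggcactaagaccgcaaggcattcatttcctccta
A match is a run of letters and does not show binding. The Elovl6 and Acaca windows hold no such match, although Elovl6 had the largest fold.

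The messages of the regulators of these enzymes were not called. None of 14 lipogenic regulators passed, and 7 had negative and 7 positive values, with a median of 0.03. Mlxipl, which encodes the carbohydrate-responsive factor ChREBP, lay between 26.4 and 40.5 CPM with tirzepatide (median 35.1) and 18.8 to 39.1 after the switch (median 24.99), a log2 fold change of 0.31 ± 0.17 (adjusted p = 0.434). Srebf1, which encodes the sterol-regulated factor SREBP-1, stood at -0.79 ± 0.33 (adjusted p = 0.286), with a wide range of 11.1 to 130 CPM in the tirzepatide libraries. It split by library number, at 11.1 to 28.5 CPM in tirzepatide libraries 1 to 4 and 67.3 to 130 in 5 to 8. H2-D1, Lamc1, Txn1, Rab28, Hpf1, Gpkow and Gtpbp4-ps3 were also lower in each of libraries 1 to 4. These called genes were picked after their values were seen. So was Pdk4, with the same split but not called. Camta2, Gm2058, Marveld1 and Snord89, called higher, were higher in each of libraries 1 to 4 than in 5 to 8. For these genes the tirzepatide group was not uniform, and fits that left out 1 library do not test such a split. The 18S share was 6.72 to 12.7% in libraries 1 to 4 and 4.82 to 6.05% in 5 to 8. Its part was not tested. Thrsp, a lipogenic protein known as Spot 14, stood at -0.83 ± 0.24 (adjusted p = 0.105). A miss at this depth does not show that these genes were equal: the 95% interval of Srebf1 ran from -1.47 to -0.12.

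Genes that supply sugar carbon and reducing power were lower in part. Slc2a5, the fructose transporter GLUT5, had 3 counts over all 8 tirzepatide libraries and 159 over the switch libraries, in which it was found in 8 of 8 with 2 to 41 counts each. Per total count this is 57.6-fold higher after the switch, with an exact 95% interval of 19.4 to 283 for counting error only, and the fitted log2 fold change was -5.44 ± 0.82 (edgeR adjusted p = 0.000419). HFD libraries held 1 count of Slc2a5 in all, semaglutide libraries 10 and ND libraries 175. Among 13 genes of NADPH supply, 2 were lower and none higher, beside 0.285% lower and 0.114% higher of all genes tested. Me1, the cytosolic malic enzyme, lay between 69.8 and 158 CPM (median 93.5) against 107 to 430 (median 180), a log2 fold change of -1.18 ± 0.23 (edgeR adjusted p = 0.00550). HFD libraries held 148 to 337 CPM of Me1 and semaglutide libraries 60.5 to 155. Tkt, transketolase of the pentose phosphate pathway, stood at -1.13 ± 0.25 (edgeR adjusted p = 0.0145), with 165 to 491 CPM against 200 to 834, and its call ended without switch library 5. G6pdx (-0.25) and Pgd (-0.20), which make NADPH in the same pathway, did not pass. Gm48795, called at -1.25, is 98.7% identical to Me1 over its transcript, so reads of Me1 may have been counted there.

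Of 26 genes of glycolysis and pyruvate use 1 passed, beside 0.399% of all genes tested. Ldha, lactate dehydrogenase A, lay between 95.9 and 236 CPM (median 139) with tirzepatide and 148 to 308 (median 266) after the switch, a log2 fold change of -0.84 ± 0.15 (edgeR adjusted p = 0.00249), and 5 of 8 tirzepatide libraries were below every switch library. Pdk4, a kinase that shuts off pyruvate dehydrogenase, stood at -1.28 ± 0.34 and did not pass (adjusted p = 0.0700). Slc2a4, the insulin-responsive glucose transporter, stood at 0.19 ± 0.15. Gapdh itself stood at -0.47 and did not pass, but Gm7336, Gm10358 and Gm3839, which are at least 99.1% identical to Gapdh, were called at -0.75, -0.80 and -0.74. Among 53 tested symbols at least 95% identical to Gapdh over 300 bases or more, a set chosen after these calls were seen, 52 had negative values, with a median of -0.68. Reads may be split among such copies, so single members are uncertain. Pygl, a glycogen phosphorylase, was lower at -0.78 ± 0.17 (edgeR adjusted p = 0.0145), a call that ended without switch library 5 or 7.

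Storage and use of fat showed no called gene. None of 14 genes of triglyceride synthesis, 18 of lipolysis and the lipid droplet, 18 of fatty acid oxidation, 18 of adipocyte identity, 9 of adipose expansion or 15 of insulin signalling passed. Adipoq, adiponectin, lay between 1836 and 2915 CPM against 1529 to 2883 (log2 fold change -0.05 ± 0.17, 95% interval -0.40 to 0.29). Lep, the fat-mass hormone leptin, lay between 257 and 705 against 355 to 850 (-0.03 ± 0.29, 95% interval -0.61 to 0.55), below all 8 HFD libraries (1629 to 1999) in both groups. Pck1, which makes glycerol phosphate for triglyceride in fat, stood at -0.80 ± 0.27 and Cfd, the adipocyte protease adipsin, at 0.65 ± 0.32, and neither passed (adjusted p = 0.172 and 0.389). Of 20 genes of cholesterol synthesis 1 passed, beside 0.399% of all genes tested. This was Tm7sf2, a sterol reductase, lower at -1.90 ± 0.46 (edgeR adjusted p = 0.0420) on low counts of 0 to 12 against 6 to 15 per library. It passed in 6 of the 16 fits that left out 1 library. The early enzyme Hmgcs1 stood at -0.08 ± 0.23. In all, 41 of the 50 lists had no called member.

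All 13 protein genes of the mitochondrial genome had negative values, between -0.98 and -0.17 with a median of -0.62, and none passed. Mitochondrial counts made up 8.52 to 18.2% of each tirzepatide library and 10.5 to 20.7% of each switch library.

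Collagens formed the other list with several calls. None of the 26 genes listed for matrix crosslinking and matricellular proteins passed, with 14 negative and 12 positive values and a median of -0.15. Of 17 collagens 3 were lower with tirzepatide, none was higher, and the median was -0.43 with 14 negative values, beside 0.285% lower and 8414 of 15807 negative values over all genes. Col3a1, a fibrillar collagen, lay between 1023 and 1756 CPM (median 1200) against 1382 to 3683 (median 2264), a log2 fold change of -0.85 ± 0.17 (edgeR adjusted p = 0.00620). Col4a1, of the basement membrane, lay between 346 and 649 CPM (median 435) against 614 to 955 (median 788), at -0.78 ± 0.16 (edgeR adjusted p = 0.00635), and Col6a3, a microfibrillar collagen, was lower at -0.79 ± 0.17 (edgeR adjusted p = 0.0102). Lamc1, the laminin gamma 1 chain of the basement membrane, lay between 61.9 and 151 CPM (median 113) against 167 to 211 (median 184) with no overlap, at -0.72 ± 0.16 (edgeR adjusted p = 0.0132), a call that ended without tirzepatide library 3 or 4. In tirzepatide libraries 1 to 4 Lamc1 lay between 61.9 and 102 CPM, and in 5 to 8 between 124 and 151. Col1a1 (-0.63 ± 0.25, adjusted p = 0.258) and Col4a2 (-0.25) did not pass. In Col3a1 the switch median was above the ranges of ND (903 to 1859) and HFD (1301 to 1831), whereas in Lamc1 the tirzepatide median was below all 8 HFD libraries (169 to 215). The 13 progenitor and stromal markers summed to between 563 and 1246 CPM with tirzepatide and 641 to 1164 after the switch, and their part in these differences was not tested.

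Immune genes showed single calls. H2-D1, a class I antigen-presenting molecule, lay between 671 and 1509 CPM (median 849) against 1294 to 2515 (median 1679), at -0.87 ± 0.16 (edgeR adjusted p = 0.00256). In tirzepatide libraries 1 to 4 H2-D1 lay between 671 and 813 CPM, and in 5 to 8 between 884 and 1509. Its close relatives may share reads, and H2-K1 (-0.59) and B2m (-0.74), its partner chain, did not pass (adjusted p = 0.0792 and 0.0660). Itgam, the integrin CD11b of myeloid cells, was called at -1.37 ± 0.29 (edgeR adjusted p = 0.0125), with 28.0 to 57.6 CPM against 28.6 to 233. This call ended without switch libraries 3, 4 and 7, at -0.53, and also without switch library 7 alone. Markers of neutrophils and mast cells summed to between 101 and 344 CPM with tirzepatide and 151 to 550 after the switch, and their part was not tested. None of 18 genes of lipid-associated macrophages, 11 of resident macrophages, 15 inflammatory mediators or 21 of the interferon response passed. Trem2 stood at 0.51 ± 0.43 and Itgax, CD11c, at 1.04 ± 0.30 (adjusted p = 0.102).

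Higher with tirzepatide was first of all Mdk. It lay between 18.4 and 40.9 CPM with tirzepatide (median 30.1) and between 7.55 and 16.3 after the switch (median 12.7), with no overlap, at 1.36 ± 0.24 (edgeR adjusted p = 0.00201; exact permutation p = 0.000155, the smallest that 12870 splits allow). HFD libraries held 9.02 to 24.9 CPM and ND libraries 4.62 to 16.3. Mdk was the only called member of 15 growth factor genes, beside 0.399% of all genes tested, and its relative Ptn stood at -0.33. It was also the only gene called with the 16 libraries alone, and it passed in each fit that left out 1 library. Of the 63 called genes, 4 had no overlap of libraries: Mdk, Lamc1, Gm16378 and Gm44705. The last 2 are predicted genes that are 97.4% identical to Eif1 and 96.8% identical to Emd. In Gm44705 the nearest libraries of the groups lay at 9.20 and 9.23 CPM. The share without overlap over all genes tested was not computed, so this count is a description only.

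Igha, the constant chain of immunoglobulin A made by plasma cells, had the largest rise at 3.20 ± 0.72 (edgeR adjusted p = 0.0245), with 5 to 54 counts in each tirzepatide library and 0 to 16 in switch libraries, of which 5 had none and switch library 4 held 16 of the 18. The call ended without tirzepatide library 3 or without switch library 5, 6, 7 or 8. Every ND, HFD and semaglutide library held at least 3 counts of Igha, so the libraries without a count were all of the switch group. The 10 B cell markers summed to between 79.9 and 251 CPM with tirzepatide and 53.6 to 319 after the switch, and their part was not tested. Kiss1r, the kisspeptin receptor, was higher at 1.42 ± 0.34 on low levels (4.30 to 17.8 against 1.85 to 8.06 CPM; edgeR adjusted p = 0.0319) and passed in 7 of the 16 fits that left out 1 library. Snord89, a small nucleolar RNA, was higher at 1.37 ± 0.27 (edgeR adjusted p = 0.00693) and passed in all 16. The other 14 higher genes rose by 0.56 to 0.97 and 1 of them, Pdia4, was in a list. They included Camta2 (0.97), a calmodulin-binding transcription activator, Il34 (0.95), a ligand of the macrophage receptor Csf1r, Ndst2 (0.90), which sulfates heparan, Grhpr (0.88), glyoxylate reductase, and Pdia4 (0.64), a chaperone of the endoplasmic reticulum. Grhpr lay between 45.2 and 83.9 CPM against 17.2 to 48.9. When 1 library was left out, Camta2, Ndst2 and Grhpr passed in all 16 fits, Il34 in 11 and Pdia4 in 5.

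**Figure D3:**
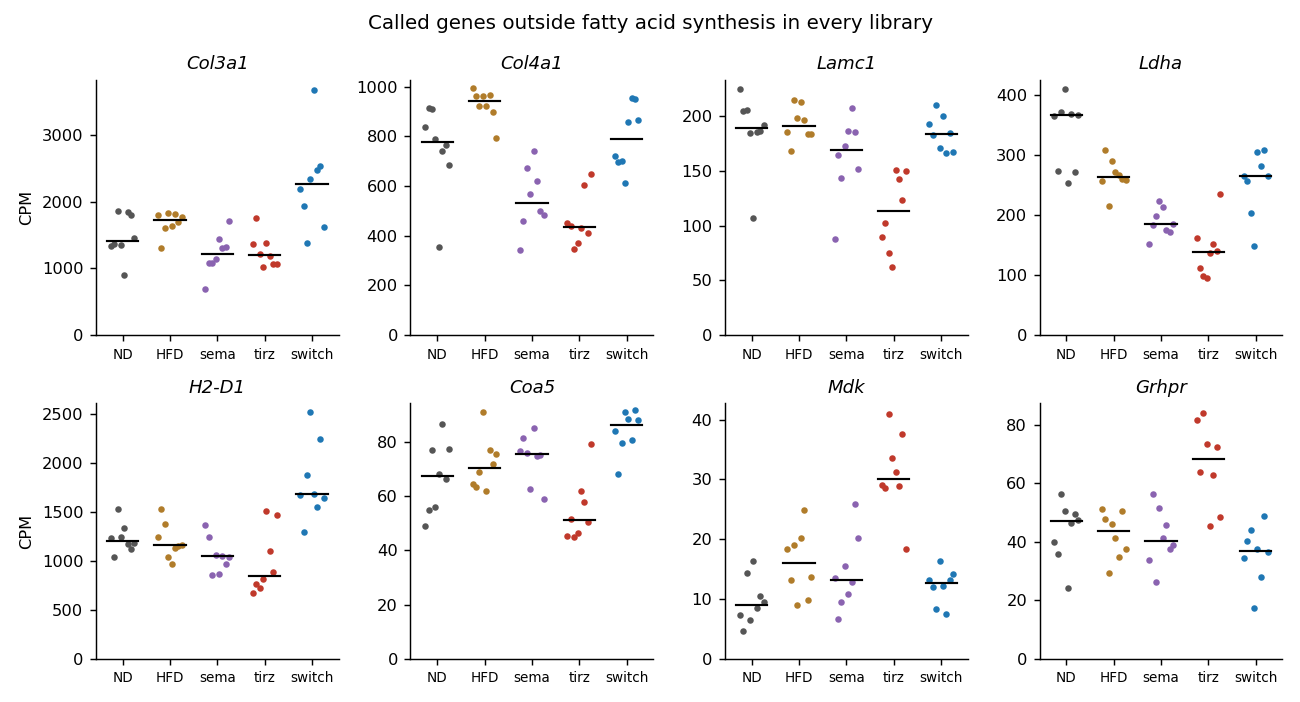
CPM on linear axes from 0 of 8 called genes outside fatty acid synthesis in each of the 40 libraries (points, 5 groups of 8; bars are medians). Lamc1 and Mdk show no overlap between tirzepatide and switch (151 against 167 and 18.4 against 16.3 CPM at the nearest points), and in Col3a1, H2-D1 and Coa5 the switch median is the highest of the 5 groups.

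The remaining lower genes are known for varied roles. Hsd11b1, which regenerates active glucocorticoid, stood at -0.78 ± 0.18 (edgeR adjusted p = 0.0229), and it passed in 10 of the 16 fits that left out 1 library. Coa5, an assembly factor of cytochrome c oxidase, stood at -0.61 ± 0.13 (44.8 to 79.2 against 68.0 to 91.7 CPM; edgeR adjusted p = 0.00803), and passed in all 16. Also lower were Chuk (-0.98), a kinase of NF-kappaB signalling, Hpf1 (-0.93), a partner of PARP1, Rab28 (-0.97), a small GTPase, Txn1 (-0.71), thioredoxin, Slc7a5 (-1.36), an amino acid transporter, Ccna2 (-1.86), cyclin A2, Ccn1 (-1.32), a matricellular protein, Nrxn3 (-1.40), a neurexin, and Ncan (-2.03), a proteoglycan. Of the 16 fits that left out 1 library, Slc7a5 passed in 5, Ccn1 and Rab28 in 6, Txn1 in 7, Hpf1 and Ncan in 8, Chuk in 11, Ccna2 in 12 and Nrxn3 in 15. Several of these are low: Ncan lay between 0.452 and 3.76 CPM with tirzepatide and Slc7a5 between 1.45 and 3.56. Of the 63 calls, 45 were outside every list and 12 were predicted genes or pseudogenes.

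The diet itself was compared as HFD minus ND. Its fold changes share no library with those above, but both comparisons come from 1 fit and share its estimate of the spread, on which the calls rest. In HFD minus ND 265 genes were lower (1.68%) and 447 higher (2.83%). Of the 45 genes lower in tirzepatide, 10 were also lower on HFD (22.2%), 2 were higher (Ccn1 and Gm56604) and 33 were not called. The 10 were Acly, Acss2, Acaca, Fasn, Elovl6, Scd1, Slc2a5, Tkt, Pygl and Hsd11b1. Log2 fold changes on HFD were -2.15 for Acly, -2.71 for Acaca, -2.29 for Fasn, -2.75 for Elovl6, -1.80 for Scd1 and -6.68 for Slc2a5. Scd2 stood at -0.70 and did not pass there. Outside the fatty acid synthesis list 4 of 38 lower genes were lower on HFD (10.5%). Of the 18 genes higher in tirzepatide none was higher on HFD and Snord89 was lower, at -1.27. Over all 63 calls the sign was shared by 32 (50.8%), beside 48.0% of all genes tested, and across all genes, which are not independent replicates, Pearson's r of the fold changes was -0.03.

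**Figure D4:**
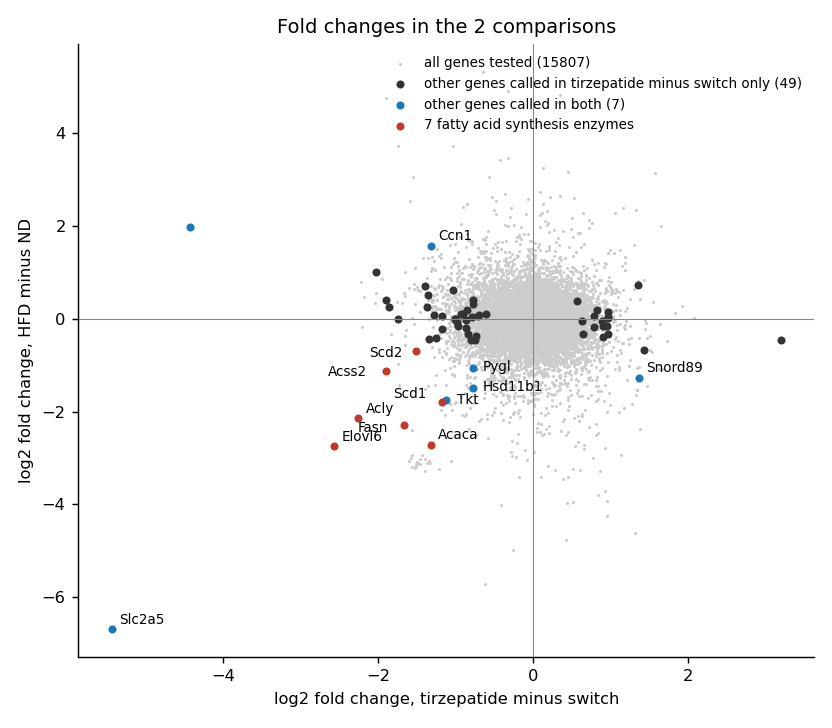
Log2 fold changes of 15807 genes in tirzepatide minus switch (x axis) and HFD minus ND (y axis), whose groups have no library in common; coloured points are the 63 genes called in the first. The 7 enzymes (red) and Slc2a5 lie at the lower left, other genes called in both are blue, and most calls of the first comparison alone (black) lie near 0 on the y axis.

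Other genes with large differences on HFD were not called here. Oxtr, the oxytocin receptor, had log2 fold changes of 3.24 on HFD and 0.12 ± 0.49 in tirzepatide minus switch, Ubd, a ubiquitin-like modifier, 4.80 and 0.34 ± 0.44, and Cyp2f2, a monooxygenase, -4.98 and -0.27 ± 0.42. Fads1, a desaturase of polyunsaturated fatty acids, had -1.51 on HFD and 0.16 ± 0.17 here (95% interval -0.18 to 0.50). The receptors of the drug were at the limit of detection. Gipr, the GIP receptor, had 3 to 34 counts per tirzepatide library and 3 to 15 per switch library, at 0.61 ± 0.50 (adjusted p = 0.635), and Glp1r had 20 and 15 counts in all and was below the filter.

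In both groups most of the enzymes tended to be high or low in the same libraries. In the switch group libraries 5, 7 and 8 were above the group's median for all 7 enzymes, library 4 was above it for none, and library 3 was the lowest for 6 of 7. With tirzepatide, library 1 was above the median for 7 and library 8 for 6. Log2(CPM + 1) of Fasn was set against that of 96 other genes named here or fixed for the report, within each of the 5 groups of 8 libraries, 480 relations with two-sided exact permutation p-values adjusted over all of them. With Fasn, Acaca had r = 0.965 with tirzepatide (exact p = 0.000397, adjusted 0.0374; Spearman's rho 0.905, exact p = 0.00456, adjusted 0.163) and 0.955 after the switch (exact p = 0.000223, adjusted 0.0374; rho 0.952, exact p = 0.00114, adjusted 0.110). Without the 2 libraries farthest from the median of Fasn these were 0.958 and 0.978. For Scd1, r was -0.238 with tirzepatide (exact p = 0.562) and 0.314 after the switch (exact p = 0.453).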

How the data were processed

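Per the labels' protocols, RNA of 40 sWAT samples was extracted with Nucleozol, made into QuantSeq libraries, which count the ends of transcripts, and sequenced on an Illumina HiSeq. The authors deposited whole-number counts for 34843 gene symbols, used here as deposited; 630 symbols had no count. The build is mm10 per the submitters' processing notes; which aligner and counter made the table is not given in the sources used here. A normalized table, also deposited, was not used in the tests, and 16 of its columns match no sample here. Samples were grouped by their labels.

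Genes passing edgeR's filterByExpr (15807, with 99.4% of all counts) were fitted over all 40 libraries with TMM factors and the robust quasi-likelihood test (edgeR 4.0.16, R 4.3.3), and a gene was called at a Benjamini-Hochberg adjusted p under 0.05. All adjusted p-values in the text are from this fit unless another is named, and SE means the standard error of the log2 fold change. Leaving out libraries, other filters and scalings, limma 3.58.1 and DESeq2 1.42.0 were tried as alternatives. The procedure was tested on simulated data. Named genes are up to 12 called genes per direction with the largest change and a mean of at least 3 log2 CPM whose libraries do not cross the other group's median, up to 5 called members of each list described, and a set of fixed genes; other called genes were named after their values were seen. The comparison, the gene lists and the fixed genes were chosen with earlier results of these data known. The exact permutation tests and the relations with Fasn (scipy 1.17.1) were added after the data were seen. Promoters are from RefSeq on GRCm38.p6. Results on a few genes are not reported here.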

Additional observations from a re-analysis of the deposited data

Results flagged for a closer look

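Single libraries stood far from the other 7 of their group in 11 of 202 groups of values tested (a gap to the nearest library above Dixon's 95% limit), and chance alone flags about 1 in 20. On the log2 CPM scale, tirzepatide library 1 was the highest of its group for Acly (8.17, the others 6.04 to 6.95), for Slc2a5 (0.67) and for Gm56604 (0.67). The values of Slc2a5 and Gm56604 rest on 2 counts each, with 0 or 1 in each other tirzepatide library. Tirzepatide library 1 had the smallest total of its group, 2115471 counts. It also held the largest share of 18S ribosomal RNA (12.7% of counts, the others 4.82 to 8.13%). Tirzepatide library 4 was the lowest for the clock output gene Dbp (-0.39), tirzepatide library 6 for Gm10358 (4.22) and tirzepatide library 8 for Mdk (4.24, the others 4.86 to 5.37). In the switch group, library 4 was the highest for Igha (2.44), library 2 for Kiss1r (3.10) and library 3 for Pdia4 (6.37), and library 7 was the lowest for Washc3 (4.71).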

How the results depend on the processing

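None of the 63 calls changed direction in any fit, but these fits reuse the same libraries, so this adds no support. In the 16 fits that left out 1 library, counts of calls ran from 37 to 359. Of the 63 calls 34 passed in each of these 16 fits, all 7 enzymes among them. The number of calls was 1 with only the 16 libraries (0 enzymes) and 1 without the muscle-high libraries (1 enzyme, Acly). It was 5 against a 1.5-fold threshold (3 enzymes) and 351 without switch libraries 3, 4 and 7. With limma-voom and quality weights it was 120, and with DESeq2 218. Some of these fits held fewer samples, and the cause of the differing counts was not tested. With DESeq2 size factors, no filter or a stricter filter the number of calls was 64, 43 and 63. The count for HFD minus ND rose from 712 to 1289 with limma-voom, and the share of calls with the same sign on HFD was 100% without the muscle-high libraries, where it rests on 1 gene.

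Same-numbered tirzepatide and switch libraries did not deviate together throughout (r between -0.06 and 0.23), so their numbers were not taken to pair them; with a replicate block 99 genes were called, 59 of the 63 among them. Totals of 2115471 to 7445548 counts limit genes of few counts such as Slc2a5, Igha, Tm7sf2 and Gipr. The groups differ in both drug and diet, which cannot be told apart.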

Other observations

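Genes of the major urinary proteins, lipocalins that carry pheromones, had negative values in both comparisons, chosen here after their values were seen. Mup1 stood at -1.51 in tirzepatide minus switch (edgeR adjusted p = 0.190) and at -3.17 in HFD minus ND, and Mup20 at -1.57 (edgeR adjusted p = 0.211) and -2.995. They passed on HFD and did not pass in tirzepatide minus switch. These genes are near-identical copies that may share reads, so they are not separate observations.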
